A study of Homo sapiens with 6 samples.

Results

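The exoribonucleases described here were DIS3, DIS3L and DIS3L2 of the RNB family, the deadenylases and trimming enzymes PARN and TOE1 of the DEDD family, PNPT1 (the mitochondrial polynucleotide phosphorylase) and XRN2. The 7 genes were taken by name, and all 63 of their transcripts in the deposited table were used, of 207167 transcripts of 63190 genes in all. The RNA-seq compared human embryonic kidney cells that overexpressed the D391N mutant of DIS3L2 (3 libraries) with control cells (3 libraries), and it was asked here whether a high level of a catalytically dead exonuclease was accompanied by other levels of its paralogs and of other exonucleases.

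RNB enzymes are hydrolases that degrade RNA from the 3′ end 1 nucleotide at a time and hold the metal ions of the active site with a cluster of aspartates. DIS3 is the catalytic subunit of the nuclear exosome, DIS3L is its counterpart in the cytoplasmic exosome, and DIS3L2 works without the exosome on RNAs that carry oligo(U) tails added by terminal uridylyltransferases such as TUT4 and TUT7. PARN and TOE1 remove adenosines from the 3′ ends of small non-coding RNAs, PNPT1 degrades RNA in mitochondria by phosphorolysis, and XRN2 is a nuclear enzyme that degrades RNA from the 5′ end and helps to end transcription. XRN2 is therefore no 3′ exonuclease, although it was taken with the others.

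The substitution that names the cells lies in the RNB domain of DIS3L2. The 3 stretches of reference coding sequence below are shown because they hold the codon changed in the construct and the codons at the aligned place in both paralogs. The capitals mark the aspartate codon.
DIS3L2: gcccgagacctcGATgatgccctctcc
DIS3: tgtactgatataGACgatgctctacat
DIS3L: tgtgaagatgtgGATgacacactctca
In DIS3L2 this is the codon that names D391N, in a reading frame of 885 codons (chr2:233075070-233075096 of GRCh37, + strand). It is number 487 of 958 in DIS3 (chr13:73346327-73346353, - strand) and 486 of 1054 in DIS3L (chr15:66615142-66615168, + strand), each inside 1 coding exon. All 3 codons were followed by a further aspartate codon. No 50-base word was shared between the annotated transcripts of any pair of the 7 genes. An exact match of a whole 50-base read could thus not move between these annotated transcripts of different members. Transcripts without a sequence in the annotation used here, such as ENST00000409307 of DIS3L2, were not compared.

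Both groups were HEK293T-Rex FlipIn cells, a kidney line that carries the tetracycline repressor. The labels name the line HEK293. In the D391N cells the mutant DIS3L2 was stably integrated and was switched on by doxycycline, while for the control cells of the RNA-seq the sources used here do not say whether doxycycline was added. All D391N libraries came from 1 line, so that the construct, the induction and the line cannot be told apart. Per the study's methods, 3 barcoded libraries were pooled for sequencing in 1 lane, whereas 6 libraries are compared here. Which of these libraries shared a lane, and whether the lane followed the group, is not stated. The labels number the replicates but do not say whether they were separate cultures, and the p-values then measure the spread between these libraries, which may be technical.

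The values were RPKM (reads scaled to the length of the transcript and the size of the library), obtained from the deposited natural log values, and the level of a gene was the sum over its transcripts. The depth was estimated as 17400000 to 22900000 reads in the D391N libraries and 19100000 to 28700000 reads in the controls, a ratio of 1.65 between the deepest and the shallowest library. Pearson correlations across genes were 0.885 to 0.935 between D391N libraries and 0.959 to 0.977 between control libraries. The epithelial keratin genes KRT8 and KRT18 were at 98.6 to 180 and 26.5 to 40.7 RPKM, VIM at 110 to 177 RPKM and NEFL, a neurofilament gene, at 26.9 to 88.0 RPKM in the 6 libraries, while LHX1 was at 1.59 to 2.63 and NEFM at 0.24 to 0.64 RPKM. Of the markers of other cell types, HBB reached 7.12 RPKM, COL1A1 4.05, PTPRC 1.77, ALB 1.13, COL1A2 0.68 and CDH5 0.22 RPKM. KRT8 was lower in all 3 D391N libraries than in any control library, and so were KRT18 and VIM, and the part of this difference in the results below was not tested.

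In the control cells DIS3L2 was a minor member by summed RPKM. PARN had the highest level, with a mean of 96.0 ± 9.68 RPKM (SD, n = 3), followed by XRN2 with 69.2 ± 2.27 RPKM, PNPT1 with 46.4 ± 7.95 RPKM, DIS3 with 32.6 ± 5.16 RPKM, DIS3L with 32.1 ± 4.14 RPKM, DIS3L2 with 13.1 ± 1.40 RPKM and TOE1 with 9.56 ± 0.83 RPKM. Of the neighbours in this order, only DIS3 and DIS3L had overlapping libraries. The order is one of summed RPKM, in which reads of a short transcript count for more. In reads estimated from the posterior variance, XRN2 had 7298, 7855 and 5360 in control replicates 1 to 3. ENST00000341484, the PARN transcript with the most such reads there, had 326, 264 and 149. This estimate is rough and comes out too low where transcripts share sequence. In the D391N cells DIS3L2 had the highest level with 449 ± 73.0 RPKM, and the other members kept their order, with overlap between XRN2 and PNPT1 and between DIS3 and DIS3L.

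**Figure D1:**
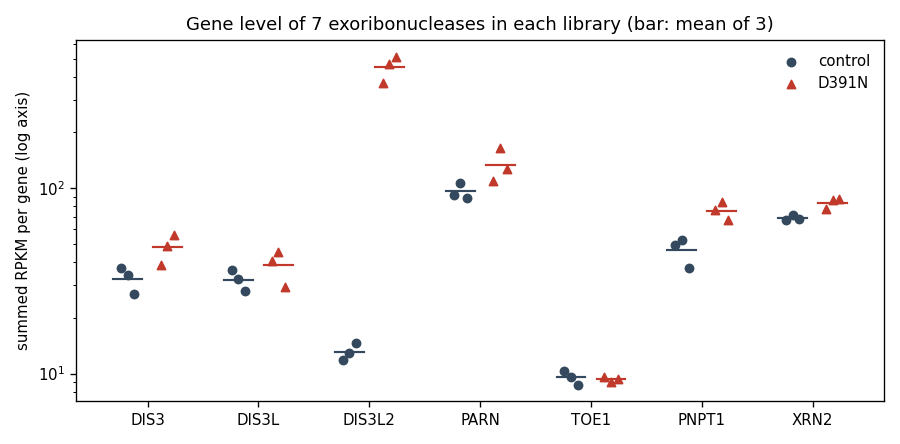
Summed RPKM per gene (y axis, log scale) of the 7 exoribonucleases in each control library (circles) and D391N library (triangles), with bars at the means of 3. DIS3L2 lies between 11.8 and 14.6 RPKM in the controls and between 369 and 512 RPKM in the D391N libraries, while the groups of the other 6 genes lie close together and those of DIS3L and TOE1 overlap.

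Between the groups, limma was run on log2(RPKM + 0.1) over the 20714 genes with a mean of at least 1 RPKM, with Benjamini-Hochberg adjustment over all of them. DIS3L2 passed an adjusted p of 0.05, and none of the other 6 members did, while 0.14% of all genes tested passed (1 higher, which was DIS3L2, and 28 lower). At an unadjusted p under 0.05, 2 of these 6, DIS3 and PNPT1, were past the threshold, and 22.7% of all genes were. The libraries of the groups did not overlap for 4 of the 6, against 31.2% of all genes. The log2 fold change was above 0 for 5 of the 6 with a median of 0.36, whereas the median of all genes was -0.09 and 42.7% of them were above 0. On these libraries 16.6% of all genes had a log2 fold change above that median of 0.36. Centring each library on its median moved the median of all genes to 0.13, where the median of the 6 members was 0.58 with all 6 above 0, and with quantile normalization the medians were 0.076 and 0.39, again with all 6 above 0. The split into higher and lower genes thus depended on the scaling, and none of the 6 passed under either. For a single gene, a two-sided exact permutation test of 3 libraries against 3 cannot go below p = 0.10.

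DIS3L2 (ENSG00000144535) stood at 369, 467 and 512 RPKM in the D391N libraries, in the order of their replicate numbers, and control replicates 1 to 3 had 11.8, 12.9 and 14.6 RPKM. Every D391N library was far above every control. The log2 fold change was 5.08 (SE 0.18, limma adjusted p = 0.000268), or 33.9-fold, with a 95% interval from 4.66 to 5.50. Reads of the integrated construct and of the cells' own gene both count toward these values.

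The rise changed the balance among the paralogs in summed RPKM. The ratio of DIS3L2 to DIS3 was 9.57, 9.53 and 9.14 in the D391N libraries against 0.319, 0.382 and 0.542 in the controls, with means of 9.41 ± 0.24 and 0.415 ± 0.11 (SD, n = 3). DIS3L2 thus went from less RPKM than either paralog in every control library to more than either in every D391N library. The ratio to DIS3L was 12.3 ± 4.50 against 0.417 ± 0.10, and its wider spread in the D391N libraries followed from replicate 3, in which the ratio was 17.4. The size of such ratios depends on how a gene is summed. The ratio of DIS3L2 to XRN2 was 4.81, 5.40 and 5.88 in RPKM in D391N replicates 1 to 3. In reads estimated from the posterior variance, not scaled to length, DIS3L2 had about 7019, 7505 and 8617 there. XRN2 had about 5969, 5865 and 7907. These read numbers are rough and come out too low where transcripts share sequence.

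The DIS3L2 reads were listed under 3 of its 16 transcripts. In D391N replicates 1, 2 and 3 these held 97.5, 97.3 and 98.1% of the summed RPKM, and in the controls they held 27.9, 21.3 and 32.5%. ENST00000409307 stood at 157, 176 and 172 RPKM in the D391N libraries and at 0.17, 0.091 and 0.066 RPKM in the controls, where it had fewer than 3 estimated reads in each library. Its D391N mean was 298-fold above the level that 3 estimated reads per library would give in the controls (limma adjusted p = 0.000216). These reads were estimated from the posterior variance, which also holds assignment error, so that this level is no count of reads.

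ENST00000464554, annotated as a retained intron transcript of 585 nt, was at 88.2, 210 and 247 RPKM in the D391N libraries and at 0.47, 0.80 and 0.65 RPKM in the controls. Each control again had fewer than 3 estimated reads. Its D391N mean was 128-fold above the level that 3 such reads per library would give in the controls (limma adjusted p = 0.0060). ENST00000441279, a coding transcript of 570 nt, was at 115, 68.3 and 83.6 RPKM against 2.65, 1.87 and 4.03 RPKM, a log2 fold change of 4.95 (SE 0.36, limma adjusted p = 0.021). Leaving out D391N replicate 3 or any 1 of the control replicates ended the calls of both transcripts, with adjusted p up to 0.0898 for ENST00000464554 and 0.134 for ENST00000441279, whereas ENST00000409307 passed without any 1 library.

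Counted in reads rather than RPKM, ENST00000409307 held the largest part of the DIS3L2 signal. Reads were estimated from the posterior variance, which also holds the error of dividing reads among transcripts, so that transcripts that share sequence come out with too few. This gave about 7019, 7505 and 8617 reads for DIS3L2 in D391N replicates 1, 2 and 3, or 344, 431 and 377 when scaled to RPM, and 233, 325 and 208 reads in the controls, or 8.55, 11.3 and 10.9 RPM. ENST00000409307 held 86.6, 84.4 and 77.8% of these reads in the D391N libraries and at most 0.12% in a control. Its length is not in the annotation used here. Its reads and RPKM correspond to 1.90, 2.07 and 1.71 kb in the 3 D391N libraries, but this is a rough figure. The same calculation gave 3.8 to 3.97 kb for the only transcript of XRN2, annotated with 3.41 kb, and it gave 0.125 to 0.203 kb for ENST00000441279 and 0.174 to 0.269 kb for ENST00000464554, far below their annotated lengths of 0.57 and 0.585 kb. With the reads of these 2 taken from RPKM, annotated length and depth instead, ENST00000409307 held 70.5, 68.0 and 59.6% of the DIS3L2 reads.

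Of the 3 transcripts, 2 could be placed on the coding sequence, and ENST00000409307 could not, since its sequence is not in the annotation used here. The coding sequence of ENST00000325385 has 2658 bases. By shared 50-base words, ENST00000441279 matched its coding bases 1 to 432, and ENST00000464554 matched bases 140 to 602, with 73.5 and 77.2% of their words inside the coding sequence. The window of the D391N codon was present in 5 of the 14 annotated DIS3L2 transcripts, and neither of these 2 was among them. BitSeq divides reads among transcripts that share sequence, so the naming of a transcript is an estimate, and the mutated codon itself was not read from these values.

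The DIS3L2 transcripts outside these 3 are given as a description only, since the set was formed by taking out those that rose. Summed over the other 13, they stood at 9.27, 12.7 and 9.84 RPKM in the D391N libraries and at 8.51, 10.2 and 9.83 RPKM in the controls, and the sums overlapped. Of the 13, 2 were above all controls in every D391N library and none was below, both of them under the minimum level of the test. ENST00000470087 was at 1.31, 1.46 and 0.92 RPKM against 0.15, 0.25 and 0.58 RPKM, and ENST00000424049, with fewer than 3 estimated reads in each of the 6 libraries, at 0.41 to 1.09 RPKM against 0.12 to 0.15 RPKM. Since reads are divided among isoforms, these levels need not be those of the cells' own gene. Of this rest, ENST00000409401 had a log2 fold change of -0.033 (limma adjusted p = 0.968) and ENST00000273009, which holds the D391N codon, of -0.83 (SE 0.44, adjusted p = 0.368).

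**Figure D2:**
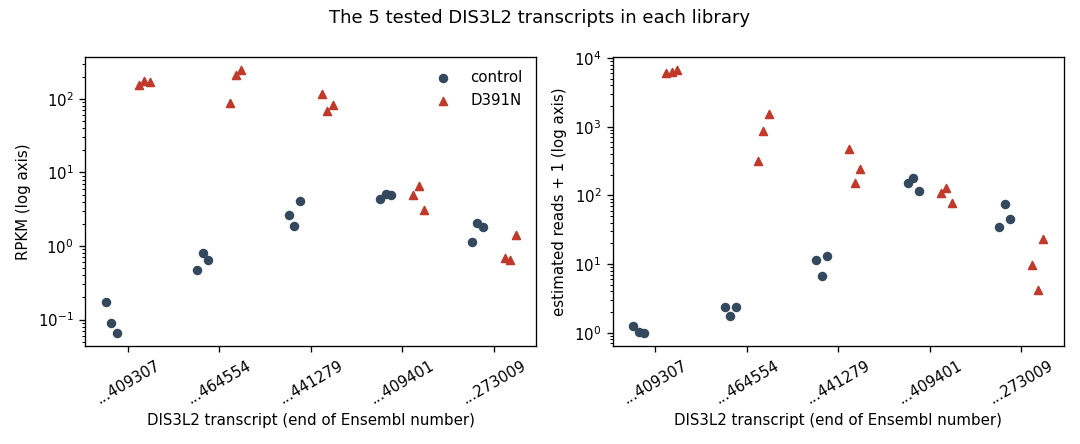
The 5 tested DIS3L2 transcripts in each control library (circles) and D391N library (triangles), as RPKM on a log axis (left) and as estimated reads plus 1 on a log axis (right). ENST00000409307, ENST00000464554 and ENST00000441279 lie above all controls in the D391N libraries and ENST00000409307 has the most reads, while ENST00000409401 and ENST00000273009 overlap between the groups in RPKM.

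DIS3, the closest nuclear counterpart, lay higher in the D391N libraries without passing the test over all genes. DIS3 (ENSG00000083520, chr13:73326307-73356234 of GRCh37, - strand) stood at 38.6, 49.0 and 56.0 RPKM in D391N replicates 1 to 3 and at 36.97, 33.8 and 26.9 RPKM in the controls. The groups did not overlap, although D391N replicate 1 and control replicate 1 were close. Its log2 fold change was 0.55 (SE 0.20, limma adjusted p = 0.179), with a 95% interval from 0.076 to 1.03. Of the exon bases of DIS3, 10.9% overlap those of BORA on the opposite strand, and whether the counting used strand is not given in the sources used here.

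All 5 DIS3 transcripts were tested and none passed. The largest part of the gene's RPKM was the nonsense-mediated decay transcript ENST00000490646, with 44.6 to 49.1% in the D391N libraries and 49.6 to 50.8% in the controls, so that its share was lower in each D391N library. ENST00000475871, a 716-nt transcript without a defined coding sequence, was at 3.39, 9.46 and 4.69 RPKM in the D391N libraries and at 0.98, 0.20 and 0.49 RPKM in the controls. It had fewer than 3 estimated reads in each control library, by the estimate from the posterior variance, which comes out too low where transcripts share sequence. Its D391N mean was 2.60-fold above the level that 3 such reads per library would give in the controls (limma adjusted p = 0.104). It held 8.77, 19.3 and 8.37% of the DIS3 sum against 2.65, 0.59 and 1.84%.

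The coding transcripts of DIS3 had smaller differences than ENST00000475871. ENST00000377780 was at 7.23, 8.08 and 9.71 RPKM in the D391N libraries and at 6.15, 6.39 and 4.41 RPKM in the controls, also without overlap (log2 fold change 0.56, SE 0.27, limma adjusted p = 0.321). ENST00000545453 ranged from 5.18 to 14.5 RPKM in the D391N libraries and from 6.45 to 8.82 RPKM in the controls. ENST00000377767, the transcript with the full coding sequence used for the codon above, was at 2.17 to 2.49 RPKM and 2.20 to 2.42 RPKM.

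DIS3L, the cytoplasmic exosome subunit, did not differ between the groups at the gene level beyond its spread. DIS3L (ENSG00000166938, chr15:66585555-66626236 of GRCh37, + strand) stood at 40.7, 45.2 and 29.4 RPKM in the D391N libraries and at 36.0, 32.4 and 27.7 RPKM in the controls, and D391N replicate 3 lay among the controls. Its log2 fold change was 0.25 (SE 0.20, limma adjusted p = 0.504, 95% interval -0.24 to 0.73).

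Of its 10 tested transcripts none passed, while 2 were higher and 2 were lower in all D391N libraries than in all controls, 40.0% without overlap against 25.8% of all transcripts tested. The coding transcript ENST00000319194 was at 3.59, 2.21 and 4.03 RPKM in the D391N libraries and at 7.47, 6.43 and 5.03 RPKM in the controls (log2 fold change -0.95, SE 0.32, limma adjusted p = 0.220). The other long coding transcript, ENST00000319212, was at 2.82, 8.10 and 6.51 RPKM against 3.20, 2.26 and 1.35 RPKM, with replicate 1 of the D391N cells inside the control range (log2 fold change 1.27, SE 0.49, adjusted p = 0.258).

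As a share of the gene, ENST00000319194 held 8.82, 4.89 and 13.7% in the D391N libraries, against 20.7, 19.8 and 18.1% in the controls. The retained intron transcript ENST00000562314 of 447 nt held 9.12, 0.77 and 2.43% against 24.6, 19.5 and 18.6%. It was at 3.72, 0.35 and 0.71 RPKM in the D391N libraries and at 8.85, 6.34 and 5.17 RPKM in the controls (limma adjusted p = 0.190). It had fewer than 3 estimated reads in each D391N library, by the same estimate from the posterior variance. Its control mean was 1.68-fold above the level that 3 such reads per library would give in the D391N libraries. The nonsense-mediated decay transcript ENST00000524795 held 10.3, 25.5 and 19.1% of the DIS3L sum against 7.39, 7.66 and 8.06%, and the retained intron transcript ENST00000564945 held 16.8, 14.2 and 12.8% against 9.13, 4.77 and 7.64%. The groups of these 4 shares did not overlap, and the two-sided exact permutation test gives p = 0.10 at the lowest.

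**Figure D3:**
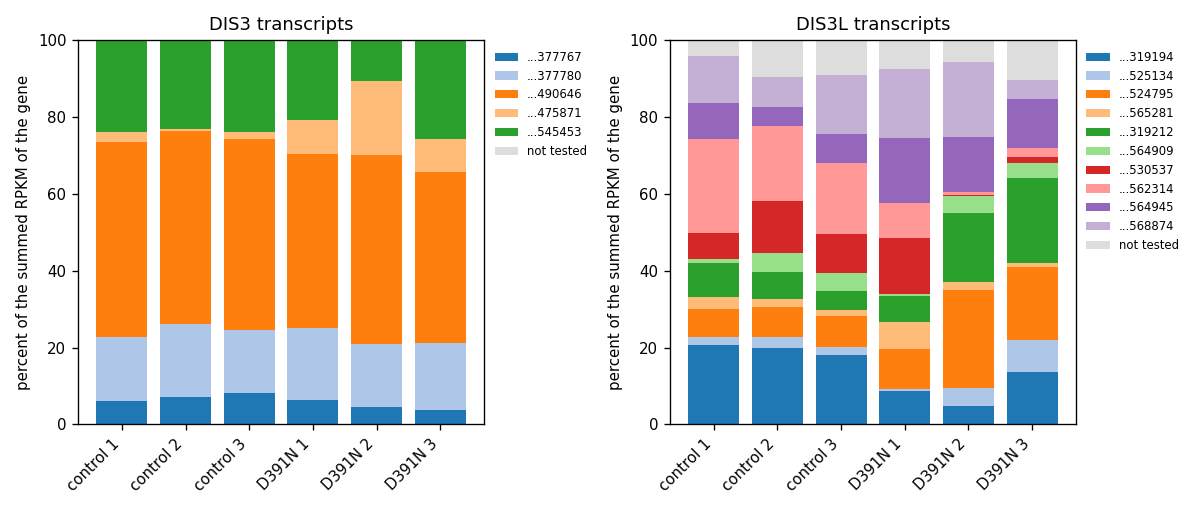
Share of each tested transcript (colours, named by the end of the Ensembl number) in the summed RPKM of DIS3 (left) and DIS3L (right), with 1 bar per library and untested transcripts in grey. For DIS3L, ENST00000319194 and ENST00000562314 together take less of each D391N bar than of any control bar, and the D391N bars differ more among themselves than the control bars.

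PARN, the poly(A)-specific ribonuclease that trims small nuclear and nucleolar RNAs and telomerase RNA, had the highest summed RPKM after DIS3L2 in the D391N cells. PARN (ENSG00000140694, chr16:14529557-14726585 of GRCh37, - strand) stood at 109, 165 and 127 RPKM in the D391N libraries and at 92.1, 107 and 88.9 RPKM in the controls. The groups did not overlap, with D391N replicate 1 just above control replicate 2. On the log2 scale the change was 0.46 (SE 0.20, limma adjusted p = 0.221, 95% interval -0.0034 to 0.93).

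Of the 11 tested PARN transcripts, 3 (27.3%) were higher in all D391N libraries than in all controls and none lower, against 25.8% of all transcripts without overlap (5539 higher and 8542 lower). ENST00000538472, a nonsense-mediated decay transcript, was at 8.86, 40.5 and 12.4 RPKM against 4.0, 5.49 and 4.06 RPKM, and 1 D391N library carried most of this difference (log2 fold change 1.86, SE 0.56, limma adjusted p = 0.194). ENST00000566021 was at 1.12, 2.14 and 5.40 RPKM against 0.17, 0.40 and 0.22 RPKM (adjusted p = 0.141), with fewer than 3 estimated reads in each control and in 2 of the D391N libraries, and no fold is given for it. The long coding transcript ENST00000341484 was at 32.5, 25.2 and 25.1 RPKM against 26.7, 21.9 and 18.6 RPKM, with overlapping groups (0.30, SE 0.25, adjusted p = 0.553).

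TOE1, a deadenylase of Cajal bodies that matures small nuclear RNAs, had the lowest level and the smallest difference of the members. TOE1 (ENSG00000132773, chr1:45805724-45809645 of GRCh37, + strand) stood at 9.63, 8.99 and 9.39 RPKM in the D391N libraries and at 10.4, 9.61 and 8.70 RPKM in the controls. All 3 D391N values fell within the control range. The log2 fold change was -0.03 (SE 0.14, limma adjusted p = 0.923), with a 95% interval from -0.37 to 0.31. The sign changed to 0.19 with each library centred on its median and to 0.14 with quantile normalization. Of its exon bases, 20.8% overlap those of MUTYH on the opposite strand.

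PNPT1 had the largest gene-level difference after DIS3L2. PNPT1 (ENSG00000138035, chr2:55861196-55920998 of GRCh37, - strand) stood at 75.8, 84.2 and 67.2 RPKM in the D391N libraries and at 49.5, 52.3 and 37.3 RPKM in the controls. Each D391N library was above each control. The log2 fold change was 0.72 (SE 0.18, 95% interval 0.28 to 1.15), but the limma adjusted p was 0.113, and 1036 of the 20714 genes had a higher log2 fold change.

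The gene-level difference of PNPT1 was spread over several transcripts, none of which passed. The short nonsense-mediated decay transcript ENST00000415489 held the largest share of the sum and was at 35.6, 28.8 and 26.9 RPKM against 15.7, 18.7 and 13.6 RPKM (log2 fold change 0.92, SE 0.24, limma adjusted p = 0.168). ENST00000415374, also a nonsense-mediated decay transcript, was at 14.3, 15.5 and 23.0 RPKM against 13.7, 13.3 and 7.82 RPKM (0.61, SE 0.33, adjusted p = 0.373). ENST00000447944, a coding transcript of 4549 nt, took 1.46 to 10.9% of the sum in the D391N libraries and 3.75 to 5.87% in the controls, and its groups overlapped.

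The mitochondrial genes listed beside PNPT1 did not move in 1 direction. SUPV3L1, the helicase that works with PNPT1, had a log2 fold change of 0.028 (SE 0.17, limma adjusted p = 0.942). The 4 genes of this list (SUPV3L1, GRSF1, LRPPRC and SLIRP) lay between -0.10 and 0.14. None of the 4 had groups without overlap.

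XRN2 was the member with the closest replicates in the controls and had 1 transcript, so that gene and isoform are the same measurement. XRN2 (ENSG00000088930, chr20:21283969-21370463 of GRCh37, + strand) stood at 76.8, 86.4 and 87.1 RPKM in the D391N libraries and at 67.5, 71.8 and 68.3 RPKM in the controls. The groups did not overlap, and the log2 fold change was 0.27 (SE 0.13, limma adjusted p = 0.278, 95% interval -0.050 to 0.59).

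**Figure D4:**
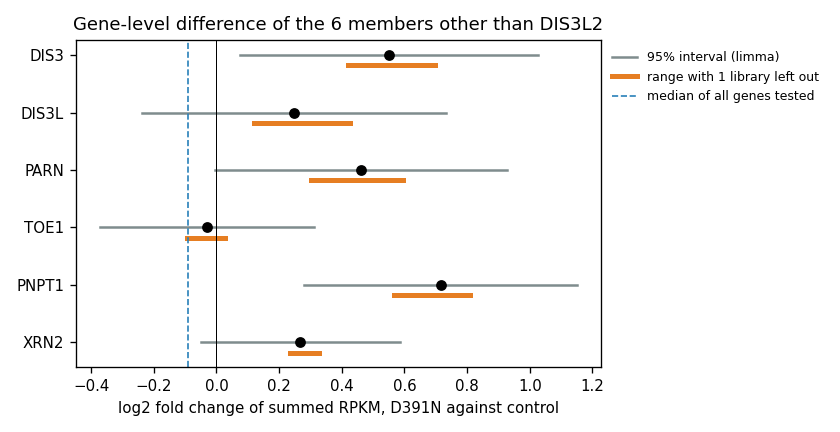
Log2 fold change of the summed RPKM, D391N against control (x axis), of the 6 members other than DIS3L2, with the limma 95% interval (grey), the range when 1 library is left out (orange) and the median of all 20714 genes (dashed line, -0.09). PNPT1 and DIS3 have intervals above 0, those of DIS3L, PARN, TOE1 and XRN2 reach 0, and TOE1 changes sign when control replicate 1 is left out.

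Over the transcripts, 39 of the 63 had a mean of at least 1 RPKM, and the 24 others reached a mean of at most 0.96 RPKM. In limma over 54671 transcripts, 3 of the 39 passed an adjusted p of 0.05, all of DIS3L2, against 0.0604% of all transcripts. None of the 34 tested transcripts of the other members passed, and their lowest adjusted p was 0.104. At an unadjusted p under 0.05, 9 of the 34 (26.5%) were past the threshold, against 17.6% of all transcripts. The groups did not overlap for 12 of the 34 (35.3%), 10 higher and 2 lower in the D391N libraries, against 25.8% of all transcripts (5539 higher and 8542 lower). The shares of isoforms within their gene did not overlap for 11 of 33 (33.3%), XRN2 left out, with 5 higher and 6 lower, against 23% of all tested transcripts of genes with more than 1 transcript.

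These counts depended on D391N replicate 1. Without it, 6 of the 34 transcripts (17.6%) passed, 4 higher (ENST00000475871 of DIS3, ENST00000524795 of DIS3L, ENST00000538472 and ENST00000566021 of PARN) and 2 lower (ENST00000530537 and ENST00000562314 of DIS3L), with limma adjusted p from 0.012 to 0.0474. In the same fit 9.07% of all transcripts passed. Of the 6, 4 (ENST00000475871, ENST00000566021, ENST00000530537 and ENST00000562314) had fewer than 3 estimated reads in every library of 1 group of that fit. At the gene level without this library 10.9% of all genes passed and none of the 6 members did, with adjusted p of 0.0657 for DIS3, 0.0794 for PNPT1 and 0.0856 for PARN. ENST00000530537 itself was at 5.96 RPKM in D391N replicate 1 and at 0.20 and 0.46 RPKM in replicates 2 and 3, against 2.47, 4.37 and 2.81 RPKM in the controls.

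A list of 57 other RNA nucleases and their partners was examined in the same fit, and 56 were tested. LIN28A was below the minimum level. None passed an adjusted p of 0.05, and at an unadjusted p under 0.05 there were 14 (25%), with 10 higher and 4 lower, against 22.7% of all genes (1400 higher and 3312 lower). The groups did not overlap for 23 of the 56 (41.1%), 14 higher and 9 lower in the D391N libraries, against 31.2% of all genes (2167 higher and 4286 lower). The median log2 fold change was 0.12 with 35 of 56 above 0, and it was 0.34 with 43 above 0 after median centring and 0.19 with 37 above 0 after quantile normalization. As deposited, the values ran from -0.55 to 0.79.

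The nuclear exosome list had a median log2 fold change of 0.33 and the cytoplasmic one of 0.20, and they held the largest differences. ZFC3H1, a subunit of the PAXT connection that brings polyadenylated nuclear RNA to the exosome, was at 72.2, 133 and 99.0 RPKM in the D391N libraries and at 57.9, 55.0 and 57.8 RPKM in the controls (log2 fold change 0.79, SE 0.23, limma adjusted p = 0.136). SKIC3, the scaffold of the SKI complex that feeds RNA to the cytoplasmic exosome, was at 188, 201 and 184 RPKM against 119, 115 and 100.4 RPKM (0.78, SE 0.15, adjusted p = 0.0832). Its complex partners SKIC2 and SKIC8 had log2 fold changes of -0.35 and -0.28 with overlapping groups. Of the 4 cytoplasmic cofactors 2 were above all controls (SKIC3 and HBS1L), and of the 8 genes of the nuclear list 4 were (the nuclease EXOSC10, ZCCHC8, RBM7 and ZFC3H1), with none below all controls in either list. In both of these small lists 50% were thus without overlap, against 31.2% of all genes.

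The 9 genes of the exosome core, which carries DIS3 or DIS3L as its nuclease, had a median log2 fold change of 0.037. EXOSC3 was above and EXOSC5 and EXOSC7 were below all controls, 33.3% without overlap against 31.2% of all genes. EXOSC5 was at 9.34, 7.51 and 8.11 RPKM against 13.03, 13.2 and 10.5 RPKM, the lowest log2 fold change of the whole list (-0.55, SE 0.17, limma adjusted p = 0.144).

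Among the 14 other 3′ exonucleases of the DEDD family, the relatives of PARN and TOE1, 3 were above and 2 below all controls, with a median of 0.083. Of these 14, 35.7% were without overlap, against 31.2% of all genes. CNOT7, a deadenylase of the CCR4-NOT complex, was at 70.9, 75.6 and 75.8 RPKM in the D391N libraries and at 43.1, 53.9 and 41.5 RPKM in the controls (log2 fold change 0.69, SE 0.15, limma adjusted p = 0.098). The 6 listed genes of the EEP family had a median of 0.18, with 1 above and 2 below all controls, 50% without overlap against the same 31.2%. ANGEL1 of this family was at 7.22, 8.57 and 8.75 RPKM against 10.8, 12.2 and 11.4 RPKM (-0.49, SE 0.15, adjusted p = 0.145).

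The remaining lists were small, and their counts stand beside 31.2% of all genes without overlap. Of the 3 enzymes that act at the 5′ end (XRN1, DXO and NUDT12), NUDT12 was above and DXO below all controls. DXO, a decapping exonuclease at a low level, was at 1.38, 0.85 and 1.22 RPKM against 2.03, 1.51 and 1.39 RPKM (-0.48, SE 0.30, limma adjusted p = 0.371), and it lies in the major histocompatibility complex, where annotated haplotype copies could share its reads. Of the 4 other 3′ processing nucleases, ELAC1 was below all controls and the median was 0.13. The last list held terminal uridylyltransferases and LIN28 proteins, of which 4 were tested. TUT4 and LIN28B were above and TUT1 was below all controls, TUT7 overlapped, and the median was 0.31. Whether TUT1 acts on RNAs before DIS3L2 was not tested.

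**Figure D5:**
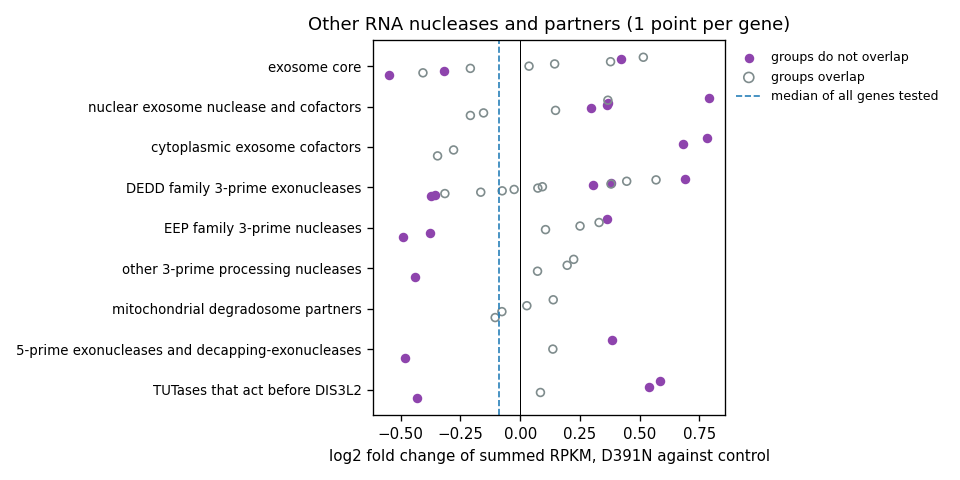
Log2 fold change of the summed RPKM, D391N against control (x axis), of the 56 tested genes of 9 lists of other RNA nucleases and partners (rows, 1 point per gene). Filled points mark the 23 genes whose groups do not overlap, and the values lie between -0.55 and 0.79 on both sides of the median of all genes (dashed line, -0.09).

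No gene had a profile close to that of DIS3L2 over the 6 libraries. By the root mean square difference of log2 levels centred on their mean, the 3 nearest of the genes tested were RPL36A-HNRNPH2 (1.17), RPL36AP46 (1.19) and RNU6ATAC35P (1.20). The first is a read-through locus and the others are annotated as copies of a ribosomal protein gene and of a spliceosomal RNA gene, so that their reads may be shared with near-identical genes. RPL36A-HNRNPH2 was at 13.4, 144 and 45.6 RPKM in the D391N libraries and at 4.2, 1.04 and 2.98 RPKM in the controls (log2 fold change 4.17, limma adjusted p = 0.0924).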

How the data were processed

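Per the study's methods, rRNA-depleted RNA was made into libraries with the ScriptSeq v2 kit, and 50-base reads were trimmed (cutadapt), aligned to Ensembl transcripts (Segemehl) and turned into levels (BitSeq) by the authors (versions are not given in the sources used here). The deposited values are, for each transcript and library, BitSeq's mean natural log RPKM and the variance of that estimate. They were exponentiated, summed per gene and tested as log2(RPKM + 0.1) with limma 3.58.1 (trend, adjusted p under 0.05) in R 4.3.3. Features with a mean under 1 RPKM were left out. BitSeq's own test needs posterior samples and was not repeated. Reads per transcript were estimated from the posterior variance and depth from transcripts of 200 to 500 nt without reads, and both cover counting and assignment error only. Lengths, biotypes, positions and sequences are from a GENCODE annotation on GRCh37 (the labels name hg38), which had a length for 90.2% of transcripts. Python 3.11.15, pandas 2.3.3, numpy 2.4.6, scipy 1.17.1 and matplotlib 3.10.9 were used, and the fit was tested on simulated data. The members and lists were chosen with earlier results of these data known. Genes of the list were named where they passed, then the 3 largest rises and 3 largest falls without overlap of the groups, and the 3 nearest profiles to DIS3L2. Other genes of the list were named after their values were seen. Alternatives were other pseudocounts, filters, scalings, gene summaries, limma without trend, a replicate block and each library left out.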

Additional observations from a re-analysis of the deposited data

How the results depend on the processing

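At the gene level DIS3L2 passed in every alternative but one, and no other member passed in any. The exception took only the most abundant transcript of each gene in the controls: no member passed, DIS3L2 was at -0.033 and DIS3L at -2.59, since it follows a single isoform. The count of all genes that passed was 29, and it was 61 with a pseudocount of 1 RPKM, 16 with 0.01, 6 with a mean of at least 5 RPKM, 18 with no filter, 14 with median centring, 17 with quantile normalization, 19 with sums over transcripts of at least 1 RPKM, 19 with the most abundant transcript, and 2 to 2261 with 1 library left out (2261 without D391N replicate 1). It was 646 with a length-weighted sum, chosen after seeing the data, in which DIS3L2 was at 2.92. That sum gives short transcripts less weight and leaves out ENST00000409307, which has no length. Median centring moved the median of all genes from -0.09 to 0.13. Transcripts that passed were 33, and 142 with a pseudocount of 1, 17 with at least 5 RPKM, 18 with no filter, 52 without trend, 57 with at least 10 reads and 2 to 4961 with 1 library left out, of which 1 to 9 were of the members and 0 to 6 of members other than DIS3L2. With a replicate block 2 genes and 7 transcripts passed, and ENST00000441279 lost its call (adjusted p = 0.107). Same-numbered libraries had correlations of deviations of 0.070, 0.22 and -0.11, and whether the numbers mark a shared batch was not tested.

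Some values that had not passed changed sign. TOE1 went to 0.19 with median centring, 0.14 with quantile normalization and -0.095 to 0.029 with 1 library left out. ENST00000372090 went to 0.036 and 0.035 with these scalings, ENST00000409401 to 0.038 with median centring and ENST00000564113 to 0.19 with quantile normalization. With 1 library left out the log2 fold changes ran from -0.21 to 0.17 for ENST00000372090, -0.061 to 0.041 for ENST00000377767, -0.16 to 0.71 for ENST00000562715, -0.88 to 0.64 for ENST00000564909, -0.30 to 1.08 for ENST00000565281, -0.15 to 1.12 for ENST00000568874, -0.0038 to 1.77 for ENST00000420015, -0.026 to 1.53 for ENST00000447944, -0.60 to 0.25 for ENST00000564113, -0.052 to 0.28 for ENST00000619878, -0.27 to 0.25 for ENST00000409401, -0.34 to 0.0027 for ENST00000495703, -0.020 to 1.51 for ENST00000525134 and -0.24 to 0.49 for ENST00000545453. Isoform shares without overlap over all members were 15, and 16 to 23 with 1 library left out. The cause of these changes was not tested. Of the 39 tested transcripts, 8 had fewer than 3 estimated reads in every library of a group, 7 of them in the controls and 2 in the D391N libraries.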
